A study of Mus musculus with 12 samples.

Results

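The genes described here were the 3 transforming growth factor beta (TGF-beta) ligand genes Tgfb1, Tgfb2 and Tgfb3, the receptor genes Tgfbr1 and Tgfbr2, the signal transducers Smad2 and Smad3, and the feedback inhibitors Smad7 and Skil. They were the rows of the count table that carried these symbols, 9 of 34513 genes, and each symbol had 1 row. All 9 passed the filter on low counts that left 18338 genes for testing. RNA was sequenced from 12 libraries of 3 mouse cell lines, 2 libraries for each line and treatment. Melan-A is a line of non-tumorigenic melanocytes, B16F0 is a melanoma line, and B16F10 is a metastatic melanoma line of the same B16 origin. Each line was either left untreated or given SX-682, an antagonist of the chemokine receptors CXCR1 and CXCR2. The labels gave the control libraries as untreated, with no vehicle, and stated neither a dose nor a time, so an effect of a vehicle cannot be told apart from that of SX-682. They did not say whether the 2 libraries of a group came from separate cultures, so the p-values measure the spread between these libraries, which may be technical.

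TGF-beta is secreted in a latent complex and must be released before it can bind its receptor pair. The type II receptor, Tgfbr2, binds ligand and phosphorylates the type I receptor, Tgfbr1, which in turn phosphorylates Smad2 and Smad3. These move to the nucleus with Smad4 and switch genes on or off, among them Smad7, which blocks the type I receptor, and Skil, which encodes the SMAD co-repressor SnoN. In pigment cells TGF-beta is known to restrain proliferation and melanin synthesis, and melanoma cells often keep making the ligand while they lose part of the growth arrest.

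Total counts per library ran from 48876982 to 85322092, and a floor of 3 counts corresponded to 0.033 to 0.0623 CPM, the count scaled to a fixed library total. Each of the 12 libraries was closest to the other library of its own group. The 10 melanocytic markers were all above the floor in every group, but their summed level was 4390 to 4710 CPM over the Melan-A libraries and 22300 to 37100 CPM over the B16 libraries. Most of the Melan-A sum was Gpnmb, at 3040 to 3110 CPM in untreated Melan-A. It was at 6660 to 6710 CPM in untreated B16F0 and 12000 CPM in untreated B16F10. In untreated Melan-A the tyrosinase gene Tyr was at 0.76 to 0.892 CPM and the melanosome matrix gene Pmel at 7.53 to 8.7 CPM, so part of the pigment program was low. Not all of the list was that low, with Dct at 351 to 358 CPM, Mlana at 114 to 119 CPM and Mitf at 101 to 103 CPM. These were below untreated B16, but Sox10, at 655 to 685 CPM, was above untreated B16F0 (445 to 460 CPM) and B16F10 (582 to 589 CPM). The summed level of 9 fibroblast markers, of which 8 were above the floor in both untreated Melan-A libraries, was 228 to 240 CPM in Melan-A, 37.0 to 43.8 CPM in B16F0 and 14.5 to 16.9 CPM in B16F10. The single fibroblast markers did not all follow these sums, but the highest in untreated Melan-A did. Pdgfrb was at 101 to 104 CPM in untreated Melan-A, 11.1 to 11.9 in B16F0 and 1.03 to 1.34 in B16F10. Col3a1 was at 53 to 54.8 CPM in untreated Melan-A and at most 0.178 in untreated B16. Col1a1 was at 45.7 to 47.1 CPM in untreated Melan-A, 5.73 to 5.86 in B16F0 and 2.5 to 2.68 in B16F10. Dcn was at 2.23 to 2.77 CPM in untreated Melan-A and at 0 in all untreated B16 libraries. Col1a2 went the other way, at 0.614 to 0.914 CPM in untreated Melan-A, 2.35 to 2.36 in B16F0 and 4.5 to 5.79 in B16F10. Pdgfra was at 3.62 to 4.38 CPM in untreated Melan-A, 7.84 to 8.38 in B16F0 and 1.24 to 1.42 in B16F10. Markers of keratinocytes, of leukocytes and of endothelial cells each summed to at most 9.4 CPM per list in any library. The part of these marker differences in the line comparisons below was not tested, and in bulk RNA fewer cells of a type and less RNA per cell cannot be told apart.

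The gene that differed most between the lines was Tgfb2, so the sequence upstream of it is shown. Tgfb2 lies on the minus strand of chromosome 1, from 186622792 to 186705989 in the mouse build GRCm38. The 250 bases before its annotated start, chr1:186705990-186706239, are printed 5′ to 3′ on the gene's strand from RefSeq (GRCm38.p6), with the matches to the SMAD-binding letters CAGAC and to the E-box CACGTG in capitals.

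Tgfb2 upstream: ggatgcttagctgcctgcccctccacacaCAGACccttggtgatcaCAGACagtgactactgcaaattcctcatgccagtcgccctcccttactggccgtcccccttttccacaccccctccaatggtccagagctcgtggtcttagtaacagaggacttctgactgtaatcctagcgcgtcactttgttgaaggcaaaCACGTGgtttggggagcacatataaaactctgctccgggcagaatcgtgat

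Both strands were searched. CAGAC was found 2 times, starting at -221 and -204 counted back from the start, and CACGTG 1 time, at -51, and these matches do not overlap. Of 32851 RefSeq promoters, searched in the same way over the 250 bases before the start, 42.2% contained CAGAC and 6.02% contained CACGTG. The first of these is thus common in such windows. The letters GTCTAGAC, TGACGTCA, TGANTCA and CATGTG were not in the Tgfb2 window. A RefSeq promoter was matched for 5 of the 9 genes, with 6 promoters in all. Besides Tgfb2, CAGAC occurred 1 time at Tgfbr2, at -160, and 1 time at 1 of the 2 promoters of Tgfbr1, at -203, and CACGTG occurred at none of the other 5 promoters.

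The first comparison asked how the pathway stood in the untreated melanoma lines against untreated Melan-A. In B16F0 all 9 genes passed the test of edgeR (adjusted p below 0.05, Benjamini-Hochberg over all genes tested), 2 higher and 7 lower than in Melan-A, and in B16F10 it was 7, with 2 higher and 5 lower. These counts are to be read against the background, in which 75.9% of all genes tested differed in B16F0 and 74.2% in B16F10. The median absolute log2 fold change of the 9 genes was 1.05 in B16F0 and 0.51 in B16F10, and that of all genes tested was 0.71 and 0.68. The median log2 fold change of all genes tested was -0.06 in B16F0 and -0.10 in B16F10. Both comparisons used the same 2 untreated Melan-A libraries, so they are given side by side.

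Tgfb2 was low in Melan-A. The untreated Melan-A libraries held 76 and 36 counts of Tgfb2, or 0.152 and 0.0684 RPKM (CPM per kilobase of gene length, with libraries scaled to their effective size). The B16F0 libraries were at 3.0 and 2.71 RPKM and the B16F10 libraries at 6.99 and 6.79 RPKM. The 3 lines did not overlap, and the 2 Melan-A libraries were themselves further apart in proportion than those of either B16 line. Against Melan-A, Tgfb2 was 26.1-fold higher in B16F0 (log2 fold change 4.70, SE 0.15, adjusted p = 5.49e-22) and 62.9-fold higher in B16F10 (5.98, SE 0.14, adjusted p = 1.46e-25). Of all genes tested, 11.2% had a larger absolute change in B16F0 and 8.61% in B16F10. Of the exonic bases of Tgfb2, 124, or 2.14%, lie opposite exons of Gm29491, and whether the counting used strand is not given in the sources used here.

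Tgfb1, which encodes the ligand form found in most tissues, was at 21.2 and 23.1 RPKM in untreated Melan-A. It was lower in B16F0, at 10.4 and 10.5 RPKM, and intermediate in B16F10, at 19.5 RPKM in both libraries. The lines did not overlap. Tgfb1 (chromosome 7, 25687002 to 25705077, plus strand) was 2.12-fold lower in B16F0 than in Melan-A (log2 fold change -1.09, SE 0.04, adjusted p = 8.03e-22) and 1.14-fold lower in B16F10 (-0.18, SE 0.03, adjusted p = 2.28e-05).

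Tgfb3, the third ligand gene, went the other way in B16F0. Its libraries were at 4.61 and 4.96 RPKM in Melan-A, 7.27 and 7.35 RPKM in B16F0 and 4.54 RPKM in both of B16F10. Tgfb3 (chromosome 12, 86056745 to 86079041, minus strand) was 1.53-fold higher in B16F0 than in Melan-A (log2 fold change 0.61, SE 0.06, adjusted p = 4.94e-10). In B16F10 the difference did not pass the test (-0.08, 95% interval -0.21 to 0.06, adjusted p = 0.29), although it did among genes with at least 10 counts in every library (-0.14, adjusted p = 0.048). Exons of Gm37804 and Gm48008 on the opposite strand cover 4.82% and 7.60% of its exonic bases.

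Per length, the make-up of the ligand transcripts therefore differed by line. Of the summed RPKM of the 3 ligand genes, Tgfb1 made up 81.6% and 82.1% in untreated Melan-A, 50.3% and 51.0% in B16F0, and 62.8% and 63.3% in B16F10. The share of Tgfb2 was 0.586% and 0.243% in Melan-A, 14.5% and 13.2% in B16F0, and 22.5% and 22% in B16F10. Tgfb3 held 17.8% and 17.6% in Melan-A and 14.6% and 14.7% in B16F10, but 35.2% and 35.8% in B16F0. The sum itself was 25.9 and 28.1 RPKM in Melan-A, 20.6 RPKM in both B16F0 libraries, and 31.0 and 30.9 RPKM in B16F10. No ordering of protein follows from these levels, since RNA alone was measured.

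**Figure D1:**
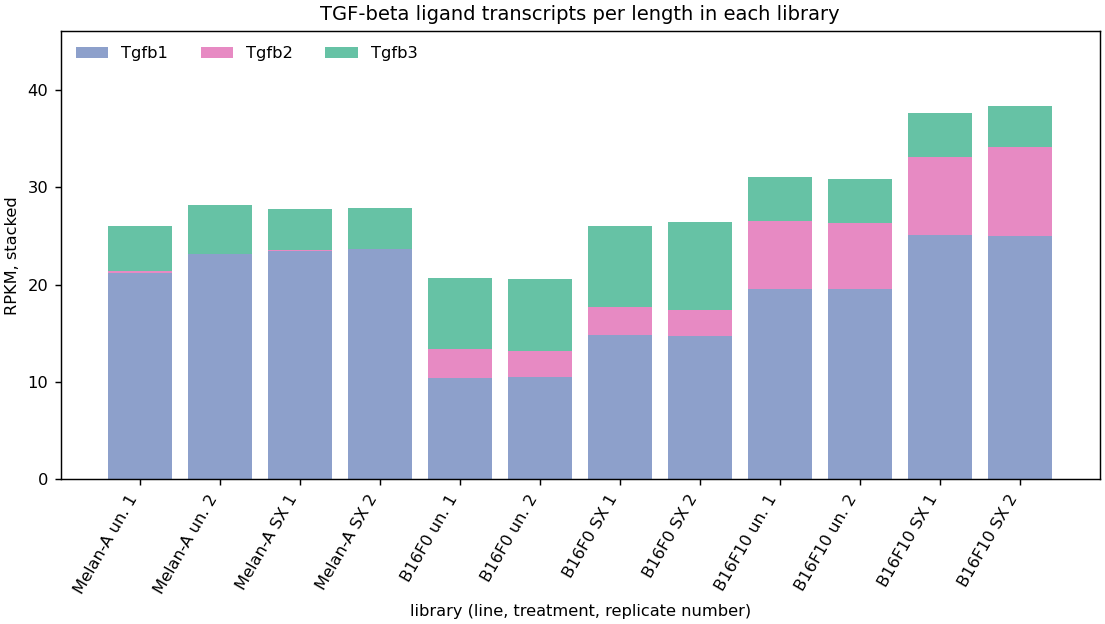
Stacked RPKM of Tgfb1, Tgfb2 and Tgfb3 (y axis) in each of the 12 libraries (x axis, line, treatment and replicate number). Tgfb2 is a thin line in the 4 Melan-A libraries, with a share of at most 0.586%, and a visible band in the 8 B16 libraries, and the stack is highest in B16F10 with SX-682, at 37.6 and 38.4 RPKM.

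The receptors parted. Tgfbr2 (chromosome 9, 116084293 to 116175360, minus strand) was at 25.3 and 26.2 RPKM in untreated Melan-A, 12.7 and 12.1 RPKM in B16F0, and 9.62 and 9.0 RPKM in B16F10. It was thus lower in both melanoma lines, by 2.07-fold in B16F0 (log2 fold change -1.05, SE 0.03, adjusted p = 1.1e-22) and by 2.77-fold in B16F10 (-1.47, SE 0.03, adjusted p = 5.46e-26), without overlap. Tgfbr1 (chromosome 4, 47353222 to 47414931, plus strand) stood at 6.57 and 6.26 RPKM in Melan-A, 5.31 and 5.46 RPKM in B16F0, and 9.10 and 9.17 RPKM in B16F10. It was lower than Melan-A in B16F0 (log2 fold change -0.25, SE 0.05, adjusted p = 1.23e-05) and higher in B16F10 (0.51, SE 0.04, adjusted p = 1.36e-11). In RPKM, Tgfbr2 exceeded Tgfbr1 by 3.85 and 4.18 times in the untreated Melan-A libraries and by 2.39 and 2.22 times in B16F0, and the pair was near equal in B16F10, with ratios of 1.06 and 0.982.

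Both receptor-activated SMAD genes were lower in B16F0. Smad3 (chromosome 9, 63646767 to 63757994, minus strand) was at 20.5 and 21.4 RPKM in Melan-A, 12.7 and 12.9 RPKM in B16F0, and 17.2 RPKM in both B16F10 libraries. Smad2 (chromosome 18, 76241580 to 76310963, plus strand) was at 8.82 and 8.85 RPKM in Melan-A, 5.93 and 5.61 RPKM in B16F0, and 8.53 and 8.43 RPKM in B16F10. B16F0 was the lowest line for each, and the lines did not overlap. Against Melan-A the log2 fold change of Smad3 was -0.71 in B16F0 (SE 0.03, adjusted p = 9.1e-18) and -0.29 in B16F10 (SE 0.03, adjusted p = 8.04e-09). That of Smad2 was -0.61 in B16F0 (SE 0.04, adjusted p = 1.5e-14), and in B16F10 it did not pass the test (-0.06, 95% interval -0.14 to 0.02, adjusted p = 0.171), although it did with RLE scaling (-0.09, adjusted p = 0.0395), with DESeq2 (-0.09, adjusted p = 0.0421) and with at least 10 counts in every library (-0.12, adjusted p = 0.00412).

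The inhibitors were lower in both melanoma lines, and Skil showed the largest difference among the 7 genes that were lower in B16F0. Skil (chromosome 3, 31095058 to 31122577, plus strand) was at 9.11 and 8.49 RPKM in untreated Melan-A, 2.09 and 1.97 RPKM in B16F0, and 2.02 and 2.17 RPKM in B16F10. It was 4.33-fold lower in B16F0 (log2 fold change -2.12, SE 0.05, adjusted p = 4.56e-26) and 4.19-fold lower in B16F10 (-2.07, SE 0.05, adjusted p = 1.22e-25). Smad7 (chromosome 18, 75367529 to 75395935, plus strand) was at 6.18 and 6.33 RPKM in Melan-A, 2.02 and 1.90 RPKM in B16F0, and 4.49 and 4.17 RPKM in B16F10. It was 3.19-fold lower in B16F0 (-1.68, SE 0.07, adjusted p = 8.71e-20) and 1.45-fold lower in B16F10 (-0.53, SE 0.06, adjusted p = 5.6e-09). The Melan-A libraries lay above all untreated B16 libraries for both genes.

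**Figure D2:**
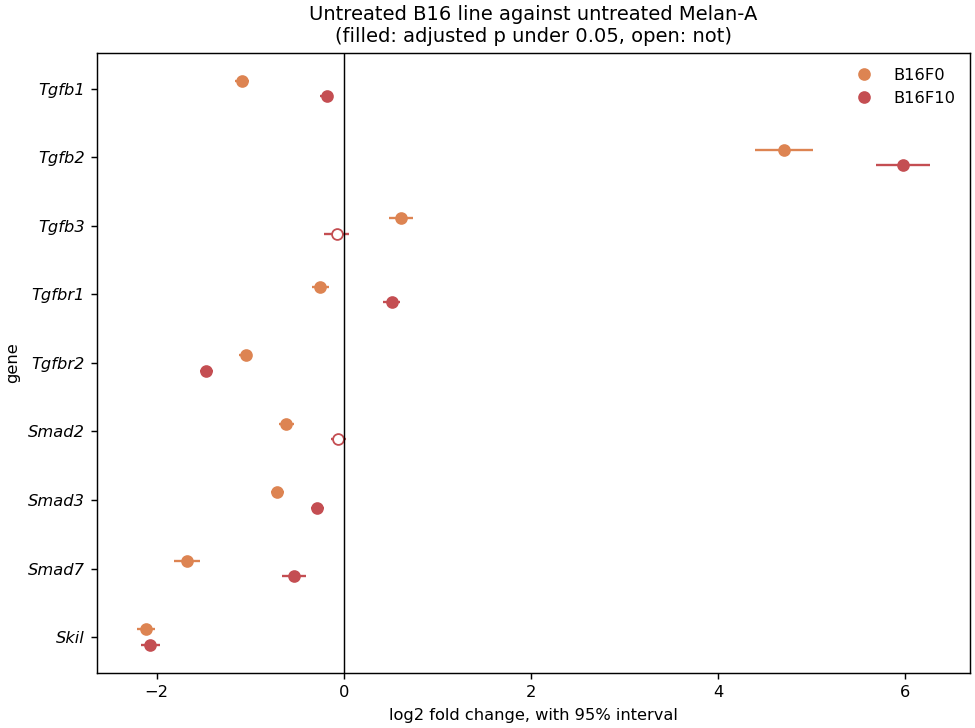
Log2 fold change (x axis) of each gene (y axis) in untreated B16F0 and B16F10 against untreated Melan-A, with 95% intervals, where filled points passed an adjusted p of 0.05 and open points did not. Tgfb2 stands far to the right in both lines, at 4.70 and 5.98, while Skil and Tgfbr2 lie below -1 in both, and the open points are Tgfb3 and Smad2 in B16F10.

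Between the melanoma lines, 8 of the 9 genes differed, 6 higher and 2 lower in B16F10, against a background of 62.0% of all genes tested. Tgfb2 was 2.41-fold higher in B16F10 than in B16F0 (log2 fold change 1.27, SE 0.09, adjusted p = 1.6e-13), Smad7 2.21-fold (1.14, SE 0.07, adjusted p = 9.21e-15), Tgfb1 1.87-fold (0.90, SE 0.04, adjusted p = 3.98e-19) and Tgfbr1 1.70-fold (0.76, SE 0.05, adjusted p = 4.54e-15). Smad2 and Smad3 were higher by log2 0.55 and 0.42. Tgfb3 was 1.61-fold lower and Tgfbr2 1.34-fold lower in B16F10. Skil did not pass the test (0.05, 95% interval -0.06 to 0.16, adjusted p = 0.479), and its libraries in these lines overlapped.

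The second comparison asked what SX-682 did to the pathway in each line. In B16F0 and in B16F10 the inhibitors Smad7 and Skil, the ligand Tgfb1 and the transducer Smad2 rose, and Tgfbr1 fell. In Melan-A Smad7, Skil and Tgfb1 rose as well, by less (the tests of these differences are given below), and Smad2 did not pass the test. In Melan-A 5 of the 9 genes passed the test, 3 higher and 2 lower, where 48.2% of all genes tested did. In B16F0 it was 8 genes, 6 higher and 2 lower, against 50.1% of all genes. In B16F10 it was also 8 genes, 6 higher and 2 lower, against 50.8% of all genes. The median absolute log2 fold change of the 9 genes was 0.08 for Melan-A, 0.30 for B16F0 and 0.31 for B16F10, and that of all genes tested was 0.31, 0.32 and 0.36. The Melan-A count fell to 3 without untreated replicate 2 and to 2 without SX-682 replicate 1 or without SX-682 replicate 2.

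**Figure D3:**
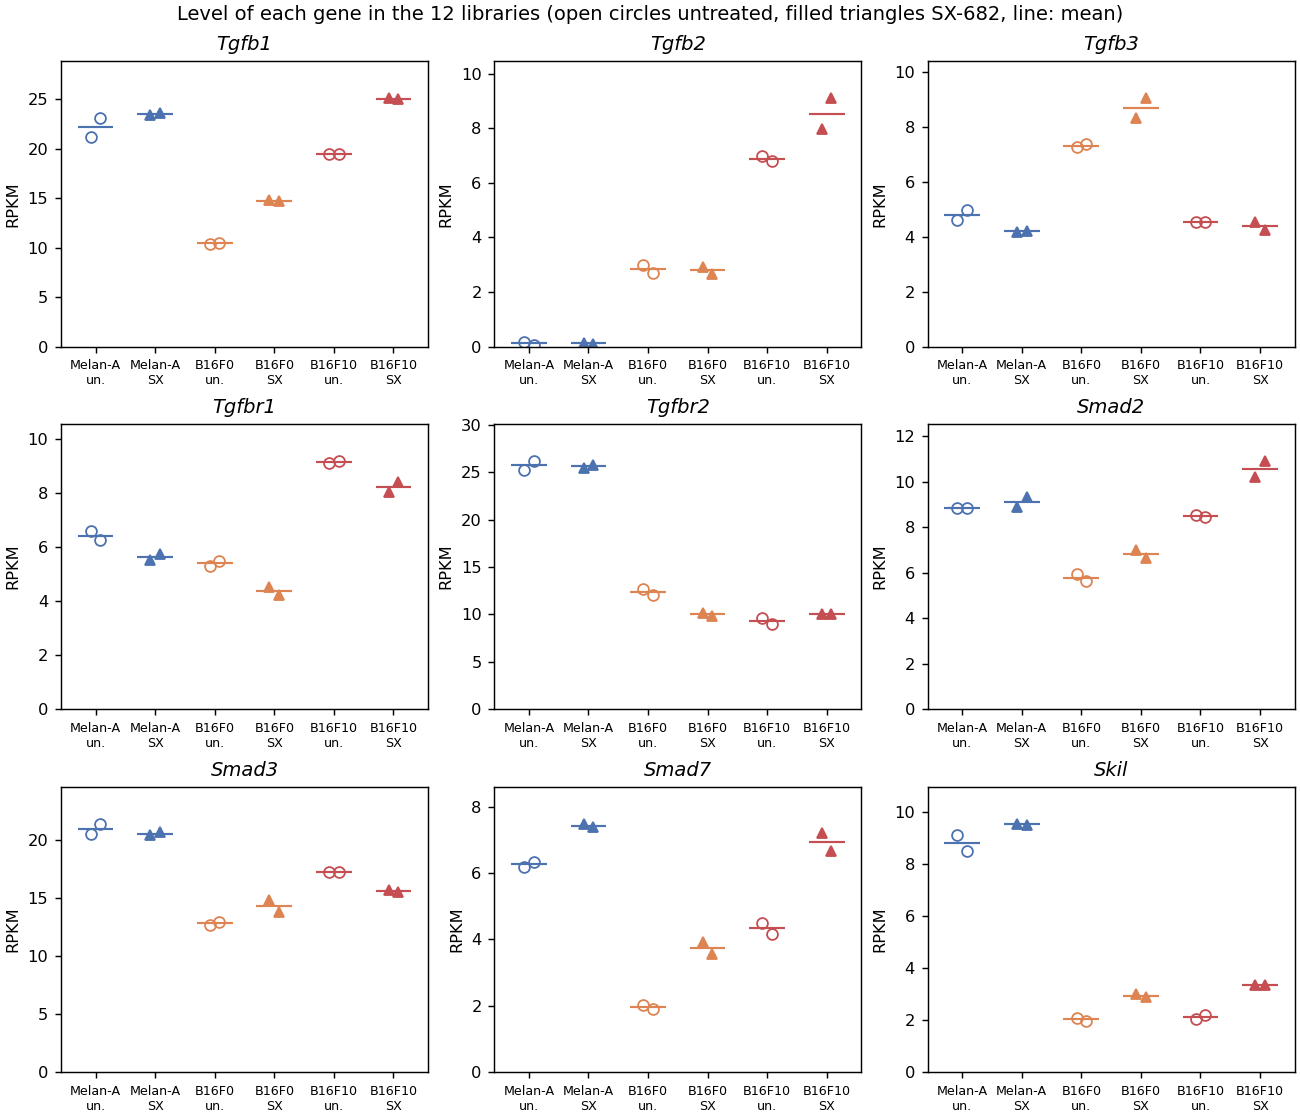
RPKM (y axis, from 0) of each of the 9 genes in the 6 groups (x axis), with open circles for untreated and filled triangles for SX-682 libraries and a line at the mean of each group of 2 libraries. Smad7 is higher with SX-682 than without in all 3 lines, and Skil is far higher in the Melan-A groups, at 8.80 and 9.51 RPKM on average, than in the B16 groups, where it is at most 3.34.

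Smad7 changed most in B16F0. Its libraries there moved from 2.02 and 1.90 RPKM untreated to 3.92 and 3.54 RPKM with SX-682, and in B16F10 from 4.49 and 4.17 to 7.19 and 6.66 RPKM. In Melan-A they moved from 6.18 and 6.33 to 7.48 and 7.37 RPKM. Treated and untreated libraries did not overlap in any line. The increase was 1.91-fold in B16F0 (log2 fold change 0.93, SE 0.07, adjusted p = 4.04e-12), 1.60-fold in B16F10 (0.68, SE 0.06, adjusted p = 1.24e-10) and 1.19-fold in Melan-A (0.25, SE 0.06, adjusted p = 0.000602). With SX-682, Smad7 in B16F10 was at 6.92 RPKM on average, above untreated Melan-A at 6.26, whereas B16F0 at 3.73 stayed below untreated B16F10 at 4.33.

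Skil, the second inhibitor, rose in the same libraries but remained well below Melan-A. It went from 2.09 and 1.97 RPKM to 3.0 and 2.87 RPKM in B16F0 and from 2.02 and 2.17 to 3.35 and 3.34 RPKM in B16F10. In Melan-A it went from 9.11 and 8.49 to 9.54 and 9.49 RPKM. Treated libraries were above untreated ones in each line. The increase was 1.45-fold in B16F0 (log2 fold change 0.53, SE 0.05, adjusted p = 8.62e-10) and 1.59-fold in B16F10 (0.67, SE 0.05, adjusted p = 4.22e-12). In Melan-A it was 1.08-fold (0.11, SE 0.04, adjusted p = 0.0244), and that call was lost without untreated replicate 2 (0.07, adjusted p = 0.309), SX-682 replicate 1 (0.12, adjusted p = 0.0742) or SX-682 replicate 2 (0.13, adjusted p = 0.0631).

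Among the ligands, Tgfb1 rose in both melanoma lines. Its libraries moved from 10.4 and 10.5 RPKM to 14.8 and 14.7 RPKM in B16F0, and from 19.5 RPKM to 25.1 and 25.0 RPKM in B16F10. These groups did not overlap, and B16F10 with SX-682 was the highest of the 6 groups. The rise was 1.41-fold in B16F0 (log2 fold change 0.50, SE 0.04, adjusted p = 2.48e-12) and 1.29-fold in B16F10 (0.36, SE 0.03, adjusted p = 3.04e-10). In Melan-A, where the SX-682 libraries were at 23.4 and 23.6 RPKM, the change was 1.06-fold (0.08, SE 0.03, adjusted p = 0.0394). The Melan-A call was lost without untreated replicate 1 (0.03, adjusted p = 0.567), SX-682 replicate 1 (0.10, adjusted p = 0.0632) or SX-682 replicate 2 (0.09, adjusted p = 0.114).

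Tgfb2 passed the test of edgeR in B16F10. The B16F10 libraries moved from 6.99 and 6.79 RPKM to 7.96 and 9.10 RPKM, which is a 1.24-fold increase (log2 fold change 0.31, SE 0.08, adjusted p = 0.00221). The groups did not overlap, but the 2 treated libraries were further apart than the untreated ones. The call was lost without SX-682 replicate 2 (0.21, adjusted p = 0.0944) and with DESeq2 (0.30, adjusted p = 0.462). In B16F0 the libraries overlapped, at 3.0 and 2.71 RPKM untreated and 2.93 and 2.65 RPKM with SX-682 (log2 fold change -0.03, 95% interval -0.23 to 0.17, adjusted p = 0.853). In Melan-A they overlapped too, at 0.152 and 0.0684 against 0.145 and 0.0851 RPKM, on 36 to 76 counts per library. The interval there reached from -0.53 to 0.66 (adjusted p = 0.879).

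Tgfb3 moved in opposite directions in Melan-A and B16F0. In Melan-A it went from 4.61 and 4.96 to 4.18 and 4.20 RPKM (log2 fold change -0.19, SE 0.07, adjusted p = 0.0158), and in B16F0 from 7.27 and 7.35 to 8.30 and 9.03 RPKM (0.24, SE 0.06, adjusted p = 0.00153). In B16F10 the SX-682 libraries were at 4.53 and 4.25 RPKM against 4.54 RPKM untreated, which did not pass the test (-0.05, 95% interval -0.19 to 0.09, adjusted p = 0.613). The Melan-A call was lost without untreated replicate 2 (-0.13, adjusted p = 0.19), SX-682 replicate 1 (-0.18, adjusted p = 0.0976) or SX-682 replicate 2 (-0.19, adjusted p = 0.0821). The summed RPKM of the ligand genes in B16F0 was 26 and 26.3 with SX-682 and 20.6 without, and in B16F10 it was 37.6 and 38.4 with and 31.0 and 30.9 without. In Melan-A the sum was 27.7 and 27.8 RPKM with SX-682, within the untreated range.

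Of the receptors, Tgfbr1 fell in all 3 lines. It went from 6.57 and 6.26 to 5.52 and 5.73 RPKM in Melan-A, from 5.31 and 5.46 to 4.51 and 4.23 RPKM in B16F0, and from 9.10 and 9.17 to 8.03 and 8.41 RPKM in B16F10. The groups did not overlap in any line. The log2 fold change was -0.19 in Melan-A (SE 0.05, adjusted p = 0.000804), -0.30 in B16F0 (SE 0.05, adjusted p = 6.68e-06) and -0.15 in B16F10 (SE 0.04, adjusted p = 0.00471). The B16F10 call was lost without SX-682 replicate 1 (-0.13, adjusted p = 0.064).

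Tgfbr2 split the melanoma lines. In B16F0 it went from 12.7 and 12.1 to 10.2 and 9.89 RPKM, a 1.24-fold decrease (log2 fold change -0.31, SE 0.03, adjusted p = 7.44e-09). In B16F10 it went from 9.62 and 9.0 RPKM to 10.1 RPKM in both libraries, a 1.08-fold increase (0.12, SE 0.04, adjusted p = 0.00661). After SX-682 the libraries of the 2 melanoma lines overlapped, which they did not when untreated. The B16F10 call was lost without untreated replicate 2 (0.06, adjusted p = 0.265) or SX-682 replicate 1 (0.11, adjusted p = 0.0515). In Melan-A the libraries overlapped, at 25.3 and 26.2 untreated and 25.5 and 25.8 RPKM with SX-682 (-0.01, 95% interval -0.07 to 0.06, adjusted p = 0.901).

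Smad2 and Smad3 parted in B16F10. Smad2 rose there from 8.53 and 8.43 to 10.2 and 10.9 RPKM (log2 fold change 0.32, SE 0.04, adjusted p = 4.83e-08), while Smad3 fell from 17.2 RPKM to 15.7 and 15.5 RPKM (-0.14, SE 0.03, adjusted p = 0.00103). In B16F0 both rose, Smad2 from 5.93 and 5.61 to 6.98 and 6.64 RPKM (0.24, SE 0.04, adjusted p = 1.51e-05) and Smad3 from 12.7 and 12.9 to 14.8 and 13.8 RPKM (0.16, SE 0.04, adjusted p = 0.000283). None of these groups overlapped. In Melan-A neither passed the test, with values of 0.04 for Smad2 (95% interval -0.04 to 0.12, adjusted p = 0.385) and -0.03 for Smad3 (95% interval -0.09 to 0.04, adjusted p = 0.533). The Smad2 groups in Melan-A did not overlap either, so a lack of overlap also occurred without a call. The ratio of Smad3 to Smad2 in RPKM was 2.02 and 2.03 in untreated B16F10 and 1.53 and 1.42 with SX-682, and between 2.08 and 2.42 in the libraries of Melan-A and B16F0.

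**Figure D4:**
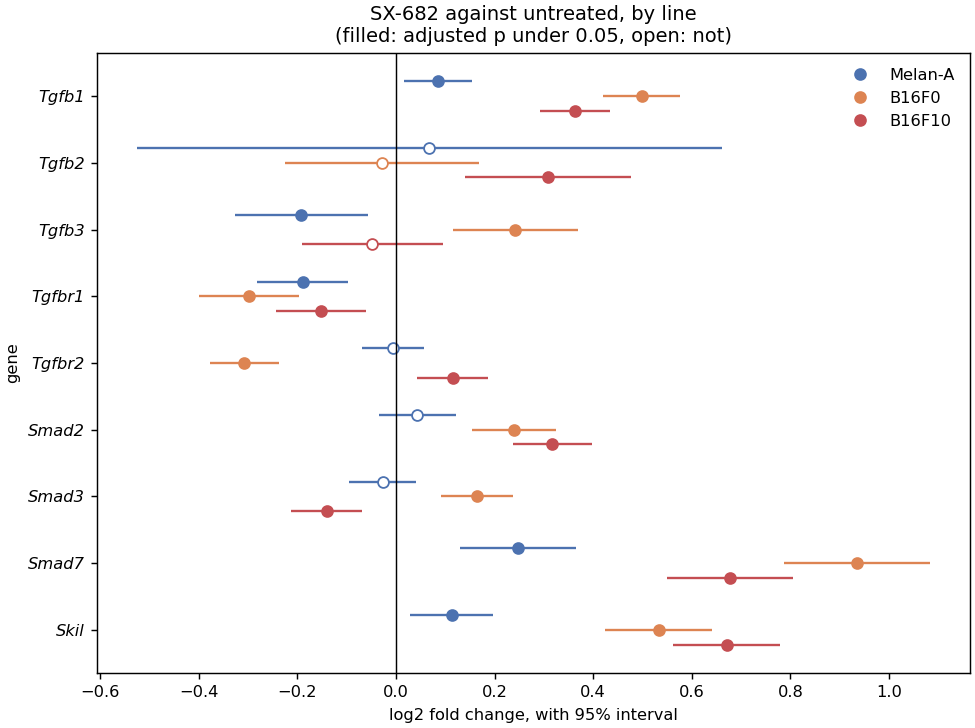
Log2 fold change (x axis) with SX-682 against untreated for each gene (y axis) in Melan-A, B16F0 and B16F10, with 95% intervals, where filled points passed an adjusted p of 0.05 and open points did not. Smad7 and Skil lie furthest to the right in the B16 lines, at 0.53 to 0.93, Tgfbr1 lies left of 0 in all 3 lines, and the widest interval is that of Tgfb2 in Melan-A, from -0.53 to 0.66.

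The third comparison tested whether the change with SX-682 itself differed between lines. Set against Melan-A, the mean change of both B16 lines was more positive for 5 of the 9 genes and more negative for 0. The background was 35.8% of all genes tested (18.7% more positive and 17.1% more negative). For Tgfbr2 the mean change was more negative at an unadjusted p under 0.05 only (log2 difference -0.09, 95% interval -0.17 to -0.01, adjusted p = 0.0759). It was called with DESeq2 (-0.10, adjusted p = 0.0468) and with no filter on low counts (-0.11, adjusted p = 0.0331). The same held among genes with at least 10 counts in every library (-0.10, adjusted p = 0.0431). That mean joins a fall of Tgfbr2 in B16F0 (-0.31) and a rise in B16F10 (0.12). The difference was 0.56 for Smad7 (SE 0.07, adjusted p = 4.57e-07), 0.49 for Skil (SE 0.06, adjusted p = 2.64e-08), 0.35 for Tgfb1 (SE 0.04, adjusted p = 9.49e-08) and 0.24 for Smad2 (SE 0.05, adjusted p = 0.000204). For Tgfb3 it was 0.29 (SE 0.08, adjusted p = 0.00493), and that call was lost without Melan-A untreated replicate 2 (0.23, adjusted p = 0.056). The inhibitors and Tgfb1 thus changed more in the melanoma lines on the log2 scale, from untreated levels that were below those of Melan-A.

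Between the melanoma lines, the change with SX-682 differed for 6 of the 9 genes, 2 more positive and 4 more negative in B16F10, against 30.3% of all genes tested. Tgfbr2 showed the largest difference (log2 difference 0.42, SE 0.05, adjusted p = 6.68e-08), followed by Tgfb2 (0.34, SE 0.13, adjusted p = 0.0434). Smad3 differed by -0.30 (SE 0.05, adjusted p = 1.73e-05), Tgfb3 by -0.29 (SE 0.09, adjusted p = 0.0172), Smad7 by -0.26 (SE 0.10, adjusted p = 0.0422) and Tgfb1 by -0.14 (SE 0.05, adjusted p = 0.0458). This count fell to 3 without B16F0 untreated replicate 1 or B16F10 untreated replicate 1, and to 2 without B16F10 SX-682 replicate 2, when Tgfbr2 and Smad3 were the genes left. Skil did not pass the test (0.14, 95% interval -0.02 to 0.29, adjusted p = 0.182), nor did Tgfbr1 (0.15, 95% interval 0.01 to 0.28, adjusted p = 0.102) and Smad2 (0.08, 95% interval -0.04 to 0.20, adjusted p = 0.359).

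The other genes of the pathway were taken from 6 lists with 89 different genes. Of all genes tested, 35.3% were higher and 40.6% lower in untreated B16F0 than in Melan-A, and 33.4% higher and 40.8% lower in B16F10. SX-682 raised 23.4% and lowered 24.7% of all genes in Melan-A, 25.1% and 25.0% in B16F0, and 25.5% and 25.3% in B16F10, with a median log2 fold change of 0 in each line. Genes that bind or release latent TGF-beta were mostly lower in the untreated melanoma lines. Of 15 tested, 11 were lower and 4 higher in B16F0, and 11 lower and 3 higher in B16F10, with medians of -1.32 and -0.54 on the log2 scale. These include genes with a mean log2 CPM below 1, such as Ltbp2 (-1.32 in B16F0) and Dcn (-10.42 in both lines). Dcn is also on the fibroblast marker list. Thbs1, which encodes the activator thrombospondin-1, was at 112 and 113 RPKM in Melan-A, 1.55 and 1.53 in B16F0, and 1.24 and 1.27 in B16F10 (log2 fold change -6.19 and -6.48). The latent TGF-beta binding protein gene Ltbp4 was higher in both (1.001 and 0.81), and so was Nrros, which anchors latent TGF-beta at the surface of myeloid cells (0.71 and 1.21). With SX-682, 3 rose and 7 fell in Melan-A, 8 rose and 2 fell in B16F0, and 7 rose and 5 fell in B16F10 (medians -0.03, 0.21 and 0.10). Itgb8, the integrin subunit that releases TGF-beta from its latent complex, fell in all 3 lines (log2 fold change -1.01 for Melan-A, -0.815 for B16F0, -0.998 for B16F10), and Ltbp4 rose in all 3 (0.19, 0.43 and 0.45, in the same order). Ltbp1, which tethers latent TGF-beta to the matrix, fell by 0.91 in B16F0 and rose by 0.64 in B16F10, and in Melan-A it did not pass the test (0.04).

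Of 10 further receptors and co-receptors tested, 8 were lower and 1 higher in untreated B16F0 than in Melan-A, and 6 lower and 3 higher in B16F10 (median log2 fold change -0.71 and -0.39). The decoy receptor gene Bambi was lower in both (log2 fold change -1.16 and -1.84), and the activin receptor gene Acvr2b was higher in B16F10 (0.43) and did not pass the test in B16F0 (0.19). SX-682 raised 5 and lowered 2 of these genes in Melan-A, raised 7 and lowered 3 in B16F0, and raised 6 and lowered 3 in B16F10 (medians 0.11, 0.37 and 0.25). Bambi fell by 0.47 in Melan-A and rose in B16F0 (0.72) and B16F10 (0.26). Tgfbr3, which encodes the co-receptor betaglycan, rose in all 3 lines (Melan-A 0.17, B16F0 0.64, B16F10 1.09), in B16F10 from 2.74 and 2.89 to 5.79 and 6.18 RPKM. Acvr2b rose in all 3 (Melan-A 0.36, B16F0 0.53, B16F10 0.53), and Eng, which encodes the co-receptor endoglin, fell in all 3 (Melan-A -0.20, B16F0 -0.57, B16F10 -0.28).

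The other SMADs and receptor adaptors, 10 genes, were split in the untreated lines, with 3 higher and 6 lower in B16F0 and 4 higher and 4 lower in B16F10 (medians -0.24 and -0.004). Smad6, the inhibitory SMAD of the bone morphogenetic protein (BMP) branch, was lower in both (log2 fold change -2.38 and -0.79), as was the adaptor gene Dab2 (-1.73 and -1.21), and Fkbp1a, whose product holds the type I receptor inactive, was higher in both (0.88 and 0.61). With SX-682, 6 of the 10 rose in each line, and 3 fell in each of Melan-A and B16F10 and 1 fell in B16F0 (medians 0.13 in Melan-A, 0.31 in B16F0, 0.33 in B16F10). Smad1, a transducer of BMP signals, rose in all 3 lines (Melan-A 0.49, B16F0 0.45, B16F10 1.21), and Fkbp1a fell in all 3 (Melan-A -0.25, B16F0 -0.24, B16F10 -0.22). Smad9, another SMAD of the BMP branch, rose in Melan-A (0.58) and B16F10 (0.47) and did not pass the test in B16F0 (0.28). Tgfbrap1, a receptor-associated protein gene, fell in Melan-A (-0.15) and B16F10 (-0.28) and did not pass the test in B16F0 (-0.07). Dab2 rose in Melan-A (0.13) and B16F0 (0.38) and fell in B16F10 (-0.25).

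Among 13 co-repressors, ubiquitin ligases and phosphatases of the pathway, 4 were higher and 9 lower in untreated B16F0, and 6 higher and 7 lower in B16F10 (medians -0.18 and -0.14). SX-682 raised 4 and lowered 2 in Melan-A, raised 7 and lowered 2 in B16F0, and raised 9 and lowered 4 in B16F10 (medians 0.03, 0.10 and 0.20). The co-repressor gene Tgif1 rose in all 3 lines, where its log2 fold change was 1.08 (Melan-A), 1.24 (B16F0) and 1.09 (B16F10). Tgif1 was lower in both untreated melanoma lines (-2.02 and -1.66), where Tgif2 was higher (0.70 and 0.48). Ski, a paralog of Skil, fell in Melan-A (-0.42) and B16F10 (-0.08) and rose in B16F0 (0.19). Tgif2 fell by 0.60 in B16F10 and did not pass the test in Melan-A (-0.17) or B16F0 (-0.13). Pmepa1, a target gene that limits SMAD signalling, was lower in both untreated melanoma lines (-2.74 and -0.96) and fell further with SX-682 in B16F0 (-0.94) and B16F10 (-0.13), while in Melan-A it did not pass the test (-0.07).

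Of 21 tested target genes of TGF-beta, 16 were lower and 3 higher in untreated B16F0, and 15 lower and 5 higher in B16F10. The median log2 fold change of the list was -2.27 and -1.07. Fn1, which encodes fibronectin, was at 1270 and 1280 RPKM in Melan-A, 30.5 and 30.4 in B16F0, and 110 and 109 in B16F10 (log2 fold change -5.39 and -3.54). Among the targets with a mean log2 CPM of at least 1, Col1a1, a fibrillar collagen gene, was furthest below Melan-A in B16F10 (-4.16). Cdkn1a, a cell cycle inhibitor gene, was higher in both (1.91 and 1.37). Col1a1 is also on the fibroblast marker list, whose sums are given above, and the part of those marker differences in the target gene differences was not tested.

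With SX-682, 12 target genes rose and 2 fell in Melan-A, 10 rose and 6 fell in B16F0, and 8 rose and 4 fell in B16F10. The median log2 fold change was 0.18, 0.45 and 0.36, where that of all genes was 0. These counts and medians include genes with a mean log2 CPM below 1. Among them were Tgfbi, called up in Melan-A (3.09) and down in B16F0 (-2.21), and in B16F0 Tagln (-5.87) and Acta2 (3.48). The AP-1 subunit gene Junb rose in all 3 lines (Melan-A 1.42, B16F0 1.01, B16F10 1.25). The matricellular gene Ccn2 stood at -1.63 (Melan-A), 0.94 (B16F0) and -0.81 (B16F10) on the log2 scale, and its relative Ccn1 fell in Melan-A (-0.13) and rose in B16F0 (2.74) and B16F10 (0.84). The differentiation inhibitor gene Id1 rose by 0.26 in B16F0 and fell by 0.68 in B16F10, and in Melan-A it did not pass the test (-0.10). The targets thus did not move in 1 direction in any line.

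**Figure D5:**
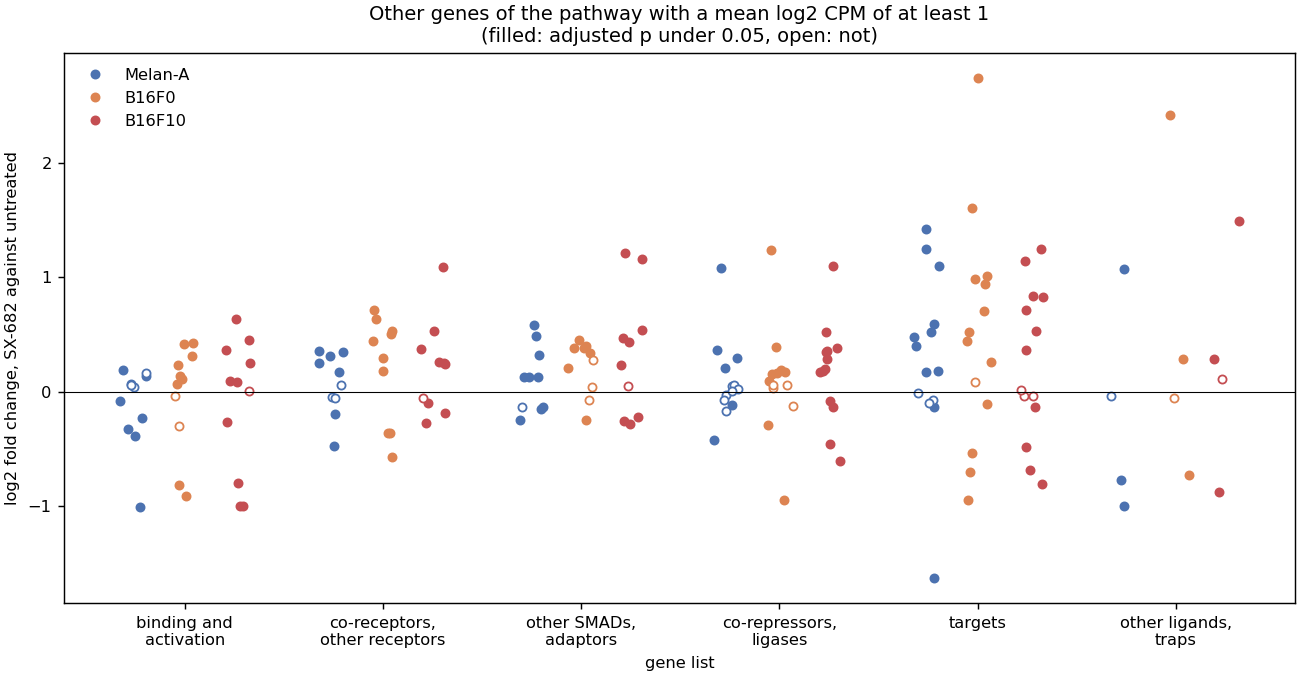
Log2 fold change with SX-682 against untreated (y axis) for the genes of the 6 lists (x axis) with a mean log2 CPM of at least 1, coloured by line, where filled points passed an adjusted p of 0.05 and open points did not. Each list holds genes on both sides of 0 in each line, and the highest point is Ccn1 in B16F0, at 2.74.

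Genes whose pattern over the 6 groups was most like that of each of the 9 genes were found among 9353 candidates with a mean log2 CPM of at least 3, by the root mean square difference of their centred group means of log2 CPM. The nearest were Paqr4 to Tgfb1 (difference 0.0856), Efna5 to Tgfb3 (0.0677), Morf4l2 to Tgfbr1 (0.062), Fhl3 to Tgfbr2 (0.0742), Usp47 to Smad2 (0.0382) and Sec16a to Smad3 (0.0447). Smad7 was nearest to Tsc22d3 (0.141) and Skil to Ccdc136 (0.109), and the second nearest were Plekhm3 (0.172) and Gm32591 (0.139). The closest genes to Tgfb2, Slc9a3r2 and Dnaic1, were at 0.468 and 0.492, over a range of its own group means of 6.31, against a range of 1.92 for Smad7. The second nearest of the others were Aff1 to Tgfb1, Phc3 to Tgfb3, Usp2 to Tgfbr1, Numb to Tgfbr2, Git2 to Smad2 and Wdr33 to Smad3. None of the 9 genes was allowed as a candidate, and 6 points that share libraries describe likeness of level only.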

How the data were processed

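Total RNA from the cultures was extracted with a column kit and sequenced by Illumina protocols per the labels. The authors' deposited table holds raw counts of reads per gene, not normalized, with gene positions in GRCm38 and the gene length, and the submitters' processing notes name cutadapt, STAR, DESeq2 and mm10. The counting program and its strand setting are not given in the sources used here. Here counts were tested with the quasi-likelihood F-test of edgeR 4.0.16 (R 4.3.3), with TMM scaling, its default expression filter, 1 mean per group over all 12 libraries, and Benjamini-Hochberg adjustment over 18338 genes, calling an adjusted p below 0.05. RPKM were computed from these counts and the length in the table. For the genes described here that length equals the union of their exons in GENCODE M21, which need not be the length of the transcripts present. Shares and ratios between genes depend on it. With 2 against 2 libraries an exact permutation test cannot go below 0.333 (2-sided), so none was used for single genes, and the p-values rest on a spread shared over genes (residual degrees of freedom 6, common coefficient of variation 2.78%). Replicates differed by more than sampling noise. Alternatives were other scalings (RLE, upper quartile), filters, thresholds, sample subsets, a replicate block, DESeq2 1.42.0 and leaving out each library.

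The 9 genes and the lists were chosen with earlier results of these data known. From each list, the text names the called gene with the largest rise and the largest fall in a comparison, among those with a mean log2 CPM of at least 1, and Ccn2, Id1 and Pmepa1 always. The counts and medians of each list take in all its tested genes, also those below that level. A gene that the rule also names is not reported here. Of 34513 identifiers, 33821 had the same coordinates in GENCODE M21.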

Additional observations from a re-analysis of the deposited data

Results flagged for a closer look

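The change with SX-682 differed between lines in 11 tests of the difference itself (edgeR, interaction of line and treatment). Between the mean of the B16 lines and Melan-A the log2 difference was 0.5591 for Smad7, 0.4889 for Skil, 0.3461 for Tgfb1, 0.2892 for Tgfb3 and 0.2354 for Smad2. All were more positive in the mean of the B16 lines. Tgfb3 fell in Melan-A (-0.19), rose in B16F0 (0.24) and did not pass the test in B16F10 (-0.05). The Tgfb3 value was not called without Melan-A untreated replicate 2 (0.23, adjusted p = 0.056).

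Between B16F10 and B16F0 the log2 difference was 0.4234 for Tgfbr2, 0.3372 for Tgfb2, -0.3045 for Smad3, -0.2898 for Tgfb3, -0.2563 for Smad7 and -0.1352 for Tgfb1. The Tgfbr2 and Smad3 values stayed called when any 1 of the 8 B16 libraries was left out. Tgfb1 lost its call without each of the 8 B16 libraries in turn except B16F0 SX-682 replicate 2 (adjusted p from 0.0703 to 0.121). Tgfb2 lost it without B16F0 untreated replicate 1, B16F0 SX-682 replicate 2, either untreated B16F10 library or B16F10 SX-682 replicate 2 (0.0738 to 0.238), with RLE scaling (adjusted p = 0.0596) and with DESeq2 (0.32, adjusted p = 0.635). Tgfb3 lost it without B16F0 untreated replicate 1, B16F0 SX-682 replicate 2 or B16F10 SX-682 replicate 2 (0.0515 to 0.0943). Smad7 lost it without B16F0 untreated replicate 2, B16F0 SX-682 replicate 1, B16F10 untreated replicate 1 or B16F10 SX-682 replicate 2 (0.172 to 0.258). With upper quartile scaling Smad7 (adjusted p = 0.0592) and Tgfb1 (0.0782) were not called either, nor was Smad7 with no filter on low counts (-0.26, adjusted p = 0.0574).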

How the results depend on the processing

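Of 1080 values of the 9 genes over 22 alternatives, 974 kept their direction and their side of the threshold, 78 kept the direction and lost the call, 11 gained one and 17 changed sign, and none of the 17 was called. At an adjusted p of 0.01 the count was 2 for SX-682 in Melan-A and 2 for B16F10 minus B16F0. When a change of 0.5 or more on the log2 scale was also required, it was 0 in Melan-A, 2 in B16F0, 2 in B16F10, 1 for the B16 lines minus Melan-A and 0 for B16F10 minus B16F0. Leaving out 1 library gave 2 to 4 genes for SX-682 in Melan-A and 2 to 5 for B16F10 minus B16F0. The replicate block gave 5, 8 and 8 genes for SX-682 (Melan-A, B16F0, B16F10), 9, 7 and 8 for the untreated comparisons, and 5 and 6 for the differences between lines, so it changed no count. The deviations of same-numbered libraries correlated at 0.0031 (Melan-A), -0.0091 (B16F0) and -0.013 (B16F10), so no shared deviation was seen. These values cannot show whether such libraries were prepared together. Tgfbr2 with SX-682 in Melan-A turned to 0.001916 with RLE scaling, 0.02306 with upper quartile scaling, 0.002722 with no filter, 0.002446 with at least 10 counts and 0.002862 with DESeq2, and leaving out 1 library gave -0.02213 to 0.02168. Smad3 there turned to 0.001619 with upper quartile scaling, with -0.05229 to 0.009466 when 1 library was left out, and -0.0004271 to 0.06176 for the B16 lines minus Melan-A. Skil between untreated B16 lines was -0.006018 with upper quartile scaling. Leaving out 1 library moved Tgfb2 between -0.4044 and 0.7469 in Melan-A, between -0.1087 and 0.04723 in B16F0, and between -0.6096 and 0.5414 for the B16 lines minus Melan-A. The cause was not tested. With 2 libraries a group, leaving out 1 assumes that the lone library varies like the other groups. Tgfb2 in Melan-A rests on 36 to 76 counts per library.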

Other observations

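Of 12 other ligands of the superfamily and their traps tested, 3 were higher and 6 lower than Melan-A in untreated B16F0, and 3 higher and 6 lower in B16F10 (median log2 fold change -0.82 and -0.84). Gdf15, a stress-induced ligand, held 7 and 9 counts in untreated Melan-A and 1307 and 1277 in untreated B16F10, and with SX-682 it rose by 2.42 in B16F0 and by 1.49 in B16F10 on the log2 scale. Of the 12, 7 differed between the untreated melanoma lines, or 58.3%, against 62.0% of all genes tested. Fstl1, which encodes a secreted follistatin-like protein, was at 9.89 and 9.75 RPKM in untreated B16F0, 1.12 and 1.07 in B16F10 and at most 0.0801 in Melan-A. Bmp1, a protease that processes matrix proteins, was at 3.45 and 3.43 RPKM in untreated B16F0 against 11.3 in both Melan-A libraries and 10.2 and 10.6 in B16F10. Gdf11, a ligand of the activin branch, fell with SX-682 in all 3 lines (Melan-A -0.77, B16F0 -0.73, B16F10 -0.87). In Melan-A, Gdf15 rose by 1.07 (adjusted p = 0.0449) and Fstl1 fell by 1.0 (adjusted p = 0.0202), on 7 to 18 and 8 to 34 counts per library. With SX-682, 1 of the 12 rose and 3 fell in Melan-A, 4 rose and 1 fell in B16F0, and 3 rose and 1 fell in B16F10 (medians 0.07, 0 and 0.20).

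Acvrl1, a type I receptor gene of the BMP branch, was at 19.2 and 18.5 RPKM in untreated B16F0, 6.29 and 6.28 in Melan-A, and 1.85 and 1.82 in B16F10. The ubiquitin ligase gene Nedd4l was at 29 and 28.8 RPKM in untreated B16F10, 13.8 in both B16F0 libraries, and 9.39 and 9.28 in Melan-A (log2 fold change 1.63 in B16F10 against Melan-A). Smad6 rose with SX-682 from 6.49 and 5.92 to 13.4 and 14.3 RPKM in B16F10 (log2 fold change 1.16) and by 0.40 in B16F0, and in Melan-A it did not pass the test (-0.13).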
